A study of Homo sapiens with 9 samples.

Results

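The mitochondrial ribosomal proteins are the protein part of the ribosome that works inside mitochondria. They were taken as every probe set of the array whose platform annotation gave exactly 1 gene symbol, with that symbol naming a protein of the large (MRPL) or small (MRPS) subunit. The rule found 140 probe sets of 75 genes, out of 54613 probe sets and 19775 genes tested, and it used no measured value. By subunit, 50 genes encode proteins of the large subunit and 25 of the small subunit. MRPS18A and MRPS30 were counted with the large subunit, where their proteins sit despite the symbols. MRPS24 and MRPL53 were represented only by probe sets with several symbols and were not members.

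Huh7, a human line of hepatocellular carcinoma cells grown in DMEM, was treated with PGG (penta-O-galloyl-beta-D-glucopyranoside), a polyphenol in which galloyl groups are attached to glucose. There were 3 arrays of cells given PGG at 0.1 mg/mL for 6 h, 3 of cells given PGG at 0.1 mg/mL for 48 h and 3 of cells given the solvent PBS for 48 h. Arrays of 1 group are labelled as biological replicates, and nothing else in them says how the cultures were kept apart, so the p-values measure the spread between these arrays. For the PBS arrays the titles give 48 h, which is used here, while the descriptions give 0 h of treatment. The arrays served to find genes whose RNA changes under PGG. PBS arrays of 6 h were not among those analysed. PGG for 6 h and a shorter time in culture thus cannot be told apart in the comparison with PBS. In the comparison of PGG at 48 h with PGG at 6 h, longer PGG and a longer time in culture cannot be told apart either.

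The mitoribosome translates the few messenger RNAs of the mitochondrial genome, which encode core subunits of the respiratory chain and of ATP synthase. Its own proteins are encoded in the nucleus, made in the cytosol and imported, and they assemble on ribosomal RNA that is transcribed inside the organelle. Some descend from proteins of bacterial ribosomes, and others have been added in mitochondria. Hepatocytes are rich in mitochondria, and the transcription factor MYC is known to raise the expression of many ribosomal and mitochondrial genes.

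Promoters of mitoribosomal genes are shown for members on which the results turn, since promoters of this family are known for sites of ETS family factors, NRF1 and YY1. RefSeq sequences (GRCh38.p14) from 250 bases before to 50 bases after the gene start were found for 67 of the 75 members. MRPL10, MRPL13, MRPL15, MRPL2, MRPL21, MRPL23, MRPL35 and MRPS28 had no entry. Each run is written 5′ to 3′ on the strand of the gene, and capitals mark CACGTG (the E-box that MYC can bind), GCATGCGC (an NRF1 core), CCGGAAG (an ETS core) or AAGATGGC (a YY1 core), searched on both strands. MRPL24 (chr1:156741039-156741338, minus strand) had the largest fall at 48 h, and MRPL52 (chr14:22829637-22829936, plus strand) and MRPL36 (chr5:1799788-1800087, minus strand) were among the 6 largest. MRPL20 (chr1:1407244-1407543, minus strand) rose at 6 h and fell at 48 h, and MRPL55 (chr1:228109250-228109549, minus strand) had the largest rise at 48 h.
MRPL24: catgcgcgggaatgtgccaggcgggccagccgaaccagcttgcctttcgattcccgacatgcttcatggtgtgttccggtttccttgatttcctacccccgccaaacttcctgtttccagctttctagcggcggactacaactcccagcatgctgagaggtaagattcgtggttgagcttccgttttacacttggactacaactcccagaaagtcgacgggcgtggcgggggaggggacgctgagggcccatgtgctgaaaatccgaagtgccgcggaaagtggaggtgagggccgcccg
MRPL52: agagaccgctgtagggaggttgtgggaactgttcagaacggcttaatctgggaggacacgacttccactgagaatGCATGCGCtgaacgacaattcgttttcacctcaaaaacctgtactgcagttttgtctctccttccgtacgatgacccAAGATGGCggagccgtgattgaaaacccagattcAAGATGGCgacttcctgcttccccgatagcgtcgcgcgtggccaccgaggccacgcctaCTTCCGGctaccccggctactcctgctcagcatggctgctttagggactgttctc
MRPL36: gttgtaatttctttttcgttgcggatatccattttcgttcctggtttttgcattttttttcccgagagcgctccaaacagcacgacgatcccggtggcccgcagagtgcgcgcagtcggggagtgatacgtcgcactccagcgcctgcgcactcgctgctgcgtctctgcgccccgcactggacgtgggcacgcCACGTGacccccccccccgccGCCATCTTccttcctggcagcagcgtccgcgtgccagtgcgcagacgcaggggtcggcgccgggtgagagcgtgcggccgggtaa
MRPL20: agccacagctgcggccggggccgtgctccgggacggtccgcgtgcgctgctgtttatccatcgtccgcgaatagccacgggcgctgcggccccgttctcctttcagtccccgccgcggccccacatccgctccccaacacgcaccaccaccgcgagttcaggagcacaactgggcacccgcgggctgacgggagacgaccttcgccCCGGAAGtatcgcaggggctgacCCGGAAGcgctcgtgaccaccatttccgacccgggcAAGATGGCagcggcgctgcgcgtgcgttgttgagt
MRPL55: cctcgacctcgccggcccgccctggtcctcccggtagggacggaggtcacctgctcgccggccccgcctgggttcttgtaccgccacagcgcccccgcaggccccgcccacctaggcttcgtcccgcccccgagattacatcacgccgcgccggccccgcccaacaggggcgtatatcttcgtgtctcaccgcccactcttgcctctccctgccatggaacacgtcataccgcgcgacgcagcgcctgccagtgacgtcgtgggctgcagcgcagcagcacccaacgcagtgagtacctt

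The windows of MRPL24 and MRPL55, which moved furthest in opposite directions at 48 h, held none of the 4 motifs. Those of MRPL12, MRPL39 and MRPL4, also among the 6 largest falls at 48 h, held none either and are not shown. MRPL52 held the NRF1 and YY1 cores and an ETS core read from the other strand. MRPL36 held an E-box and a YY1 core read from the other strand, and MRPL20 the ETS and YY1 cores. No 2 of the marked motifs overlapped. Over all 67 windows the ETS core was present in 28 (41.8%), against 14.2% of 15843 promoters of protein-coding genes of the same length. The YY1 core was present in 19 (28.4%), against 3.91% of all promoters, and the NRF1 core in 6 (8.96%), against 4.26%. The E-box was present in 6 (8.96%), against 8.88% of all promoters. Among the 49 members with a window that were lower at 48 h, 24 (49%) held the ETS core, 13 (26.5%) the YY1 core, 3 (6.12%) the NRF1 core and 5 (10.2%) the E-box. Among the 8 that were higher, 2 held the ETS core, 2 the YY1 core, 2 the NRF1 core and 0 the E-box. A match of letters is a description of the window and not of a bound site, and the shares of the higher and lower members were not tested against each other.

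A further property of these genes that the rule did not use was their position. The start of 18 of the 67 members (26.9%) lay within 1000 bases of the start of a protein-coding gene that runs the other way, against 10.3% of all 15843 genes. MRPL46 and MRPS11 form such a pair with each other, with their starts 320 bases apart, and MRPS12 faces SARS2, the mitochondrial seryl-tRNA synthetase, at 181 bases. In the first pair, MRPL46 is a mitochondria-specific protein of the large subunit. Its log2 differences from PBS were 0.25 at 6 h and 0.02 at 48 h. MRPS11, which has a bacterial relative, had 0.07 and -0.76. MRPS12 had 0.42 at 6 h and 0.20 at 48 h, and SARS2 had 0.50 and -0.27. These pairs were picked after their values were seen.

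The authors deposited 1 log2 signal per probe set, normalized over the arrays, and array medians over all probe sets lay between 5.16 and 5.2. Each gene was represented by its probe set of highest mean signal, and limma gave the differences from PBS and their p-values, with Benjamini-Hochberg adjustment over 19775 genes. The words rose and fell are used for an adjusted p under 0.05. Of 9 hepatocyte markers measured, 8 had means of 10.01 to 13.54 on the log2 scale in every group, among them ALB and AFP, while TTR had 8.60 in PGG at 6 h, 8.06 in PGG at 48 h and 7.06 in PBS. At 48 h 4 of the 9 rose and 4 fell, with APOB lowest at -1.99. Of 15 markers of fibroblasts, endothelium and leukocytes, LYZ was high in every group (means of 11.96 to 12.14), and the other 14 had means between 2.93 and 7.52, with PTPRC, CDH5, KDR and PDGFRA at 3.64 or below. At 48 h LUM rose by 3.27, to 6.19 in PGG against 2.93 in PBS, and PECAM1 rose by 0.46. CD14 fell by 1.37, to 4.78 in PGG against 6.16 in PBS, and COL1A1, COL3A1 and CD3E fell by 0.28 to 0.32. The part of these markers in the results was not tested. The 3′ minus 5′ difference of the ACTB control probe sets, a sign of RNA quality, was 1.13 to 1.23 in PGG at 6 h, 2.14 to 4.03 in PGG at 48 h and 0.96 to 1.57 in PBS, with the highest value in replicate 2 of PGG at 48 h.

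After 6 h of PGG the mitoribosomal genes were more often higher than lower, and after 48 h most were lower. At 6 h 28 of 75 members rose (37.3%, against 17.2% of all genes) and 8 fell (10.7%, against 16.9% of all genes), and 39 did not pass. The median log2 difference from PBS was 0.12, beside 0.01 for all genes, and the members ranged from -0.40 to 0.90. At 48 h 55 members fell (73.3%, against 24.3% of all genes), 10 rose (13.3%, against 23.9% of all genes) and 10 did not pass. The median was -0.46, beside -0.02 for all genes, with a range from -2.25 to 0.86. Among the called genes at 48 h, 13 of the 75 members differed by more than 1 on the log2 scale. Over all 19775 genes, 2498 did so. The members do not vary independently of each other, and the comparisons share the PBS arrays.

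**Figure D1:**
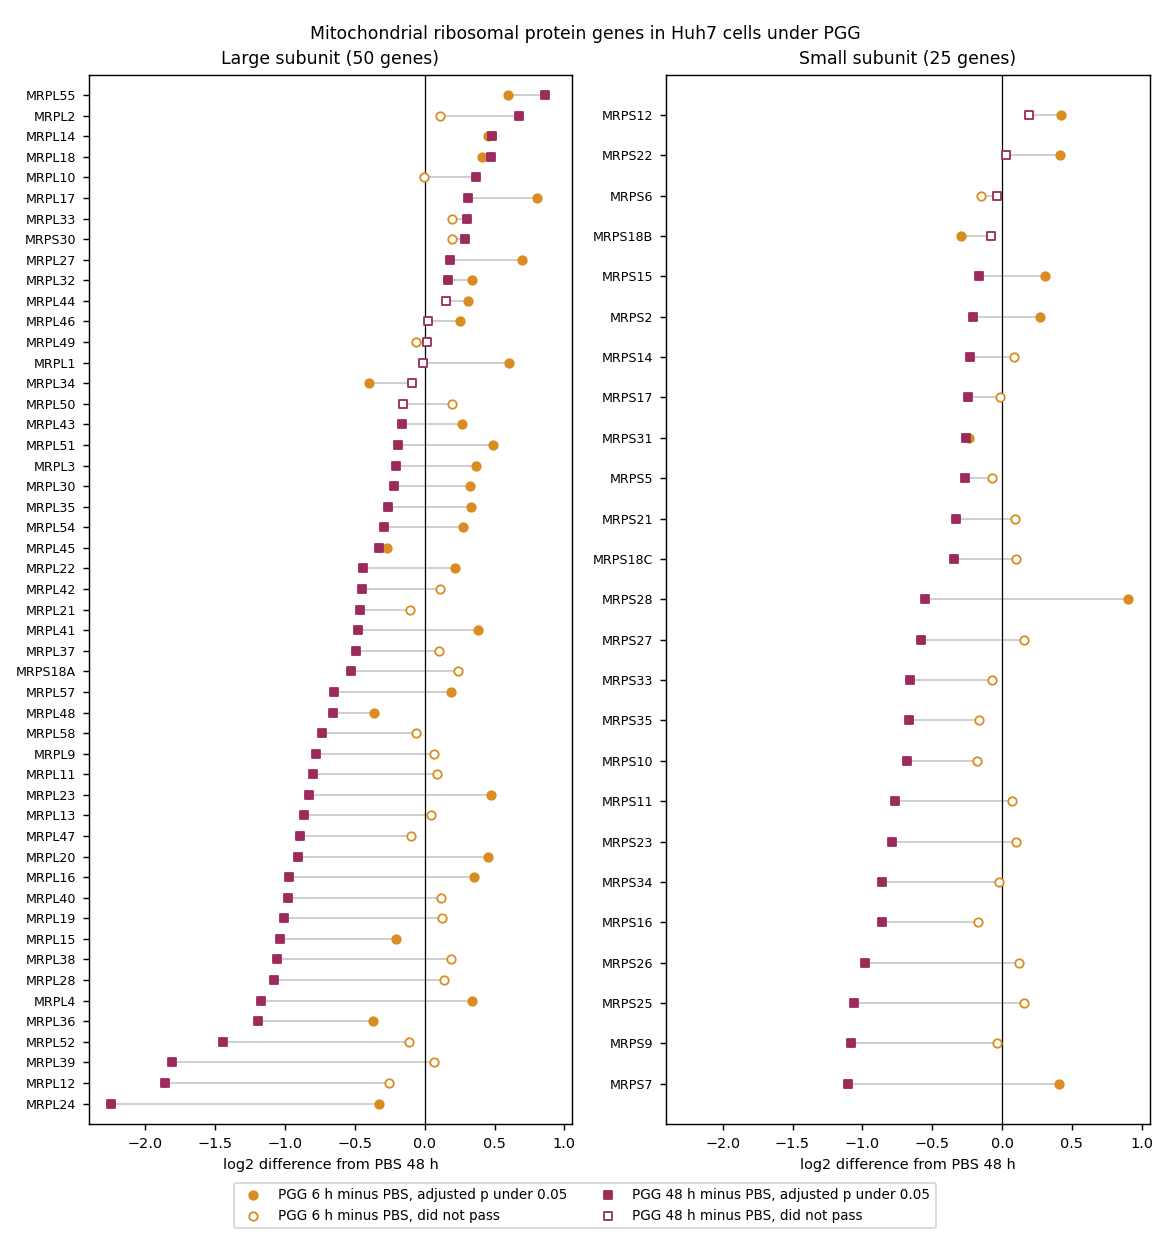
Log2 difference from PBS at 48 h (horizontal axis) for each of the 50 large-subunit and 25 small-subunit genes, with circles for PGG at 6 h and squares for PGG at 48 h. Filled symbols passed an adjusted p under 0.05 (limma), and 55 of the 75 squares are filled and left of 0.

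The direct comparison of PGG at 48 h with PGG at 6 h, which does not use the PBS arrays for the difference, had 60 members lower (80.0%, against 23.4% of all genes) and 5 higher (6.67%, against 23.6% of all genes). Its median was -0.59, and longer PGG and a longer time in culture cannot be told apart in it. On the single arrays the median signal over the 75 members was 9.66, 9.66 and 9.74 in PGG at 6 h, 9.01, 9.07 and 9.13 in PGG at 48 h and 9.48, 9.52 and 9.46 in PBS. The 3 groups did not overlap in this median, with PGG at 6 h above PBS and PGG at 48 h below it. In extracts of whole cultures, a lower signal per cell and a larger share of cells with low signal cannot be told apart. The median spread of a member within a group was 0.05 in PGG at 6 h, 0.07 in PGG at 48 h and 0.06 in PBS (SD, n = 3 each). Replicate 2 of PGG at 48 h was the array with the ACTB difference of 4.03. Without it, limma gave 55 members lower and 9 higher at 48 h, with a median of -0.44. With all arrays, 24.3% of all genes were lower and 23.9% higher at 48 h. The other PGG arrays of 48 h had ACTB differences of 2.14 and 2.67, above those of every PBS array (0.96 to 1.57). What part the RNA quality of the PGG arrays of 48 h had in these differences was not tested.

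**Figure D2:**
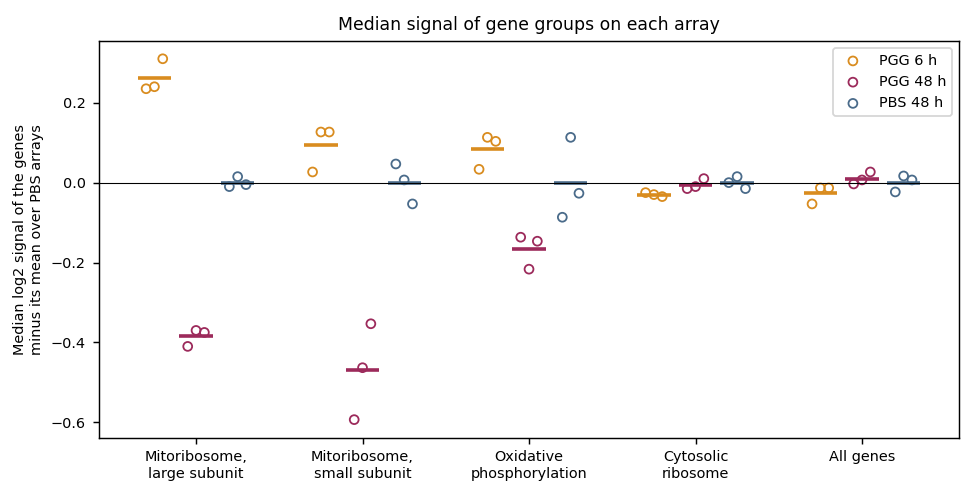
Median log2 signal of 5 groups of genes on each array, minus the mean of that median over the PBS arrays (vertical axis), with points for arrays and bars for group means. For both subunits the PGG arrays of 48 h lie below every PBS array, whereas the cytosolic ribosomal genes lie close to the PBS mean on all arrays.

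Joint counts over both times of treatment were made for the members only, so no share of all genes stands beside them. Side by side, 17 members rose at 6 h and fell at 48 h, and 32 did not pass at 6 h and fell at 48 h. A further 6 rose at both times, 6 fell at both, 4 did not pass at 6 h and rose at 48 h, 5 rose at 6 h without passing at 48 h, and 2 fell at 6 h without passing at 48 h. No member fell at 6 h and rose at 48 h, and 3 passed at neither time. On the probe sets used, these 3 were MRPL49, MRPL50 and MRPS6. For MRPL50, probe sets of lower signal did pass. That of mean signal 8.40 had -0.27 at 48 h (adjusted p = 0.016 from limma over all probe sets). At 6 h it had 0.21 and did not pass (adjusted p = 0.070). That of mean signal 4.80 had -0.52 at 6 h and -1.12 at 48 h (adjusted p = 0.0016 and 2.0e-06). MRPS6, a relative of bacterial S6, had 9.52, 10.08 and 9.24 in PGG at 48 h against 9.61, 9.61 and 9.72 in PBS, so the PGG arrays lay on both sides of PBS.

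The large subunit, which forms the peptide bond, held all 10 of the members that rose at 48 h. At 6 h 22 of its 50 genes rose (44%, against 17.2% of all genes) and 6 fell (12%, against 16.9%). At 48 h 10 rose (20%, against 23.9% of all genes) and 34 fell (68%, against 24.3%). The medians were 0.19 and -0.46. Of the 31 large-subunit genes with a bacterial relative, 9 rose and 20 fell at 48 h. Of the 19 without one, 1 rose and 14 fell. The 1 that rose, also counted among the 10 above, was MRPS30, whose probe sets 222275_at and 227600_at were lower (-1.24 and -1.41). Whether the subunits or the origins differ from each other was not tested.

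The largest fall at 48 h was that of MRPL24, whose bacterial relative starts the assembly of the large subunit. Its log2 signal was 9.46, 9.42 and 9.40 in PGG at 6 h, 7.46, 7.42 and 7.63 in PGG at 48 h and 9.84, 9.66 and 9.76 in PBS. All PGG arrays lay below all PBS arrays, and those of 48 h far below. The difference from PBS was -0.33 at 6 h (SE 0.07, adjusted p = 0.0040 from limma) and -2.25 at 48 h (SE 0.07, adjusted p = 2.6e-10), a 4.76-fold lower signal.

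MRPL12 encodes the flexible stalk protein that recruits translation factors, and its product also binds the mitochondrial RNA polymerase. It had 9.25, 9.25 and 9.27 in PGG at 6 h, 8.15, 7.01 and 7.81 in PGG at 48 h and 9.47, 9.53 and 9.54 in PBS. The PGG arrays of 48 h did not overlap PBS but spread widely (SD 0.59), with replicate 2 lowest. The difference at 48 h was -1.86 (SE 0.21, adjusted p = 8.6e-06 from limma), and -1.53 without that replicate. At 6 h it was -0.26 (adjusted p = 0.41), which passed without replicate 2 of PGG at 48 h (adjusted p = 0.027). MRPL38, a mitochondria-specific protein of the large subunit picked after its values were seen, showed the same array lowest, with 7.92, 6.95 and 7.75 in PGG at 48 h against 8.64, 8.55 and 8.61 in PBS.

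MRPL39 and MRPL52, both proteins of the large subunit that bacteria lack, fell by 1.81 and fell by 1.44 at 48 h (adjusted p = 2.5e-10 and 1.8e-09 from limma). MRPL39 had 6.97, 7.02 and 6.98 in PGG at 48 h against 8.85, 8.73 and 8.83 in PBS, and MRPL52 had 8.86, 8.96 and 8.85 against 10.29, 10.33 and 10.38. At 6 h neither passed, with differences of 0.06 and -0.11. MRPL36, whose bacterial relative is a small zinc-binding protein, fell at both times, with 8.44, 8.50 and 8.58 in PGG at 6 h, 7.62, 7.75 and 7.67 in PGG at 48 h and 8.87, 8.84 and 8.92 in PBS. MRPL4, whose bacterial relative lines the tunnel through which the new peptide leaves, rose by 0.34 at 6 h and fell by 1.17 at 48 h.

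Of the 8 members that fell at 6 h, MRPL34 moved furthest. This relative of a small bacterial protein of the large subunit had 8.58, 8.65 and 8.69 in PGG at 6 h, 8.98, 9.0 and 8.86 in PGG at 48 h and 9.0, 8.93 and 9.18 in PBS. Its difference at 6 h was -0.40 (adjusted p = 0.0014 from limma), and at 48 h it overlapped PBS (-0.09, adjusted p = 0.38). MRPL48, a mitochondria-specific protein, fell by 0.36 at 6 h and fell by 0.66 at 48 h, and MRPL45, which sits at the tunnel exit and faces the inner membrane, fell by 0.27 and fell by 0.33.

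The members that rose at 48 h were led by MRPL55, the counterpart of bacterial L31. Its signal was 7.86, 8.03 and 8.03 in PGG at 6 h, 8.21, 8.21 and 8.30 in PGG at 48 h and 7.32, 7.47 and 7.34 in PBS, so that every PGG array lay above every PBS array. The difference was 0.60 at 6 h and 0.86 at 48 h (adjusted p = 3.8e-05 and 5.6e-07 from limma), a 1.82-fold higher signal at 48 h. MRPL2, whose bacterial relative lies close to the catalytic centre, had 7.66, 7.70 and 7.71 in PGG at 48 h against 6.86, 7.13 and 7.05 in PBS and rose by 0.68, and at 6 h it overlapped PBS.

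MRPL14, which lies at the face that meets the small subunit, and MRPL18, a relative of a bacterial protein that binds ribosomal RNA, rose at both times. MRPL14 had differences of 0.45 and 0.48, and MRPL18 of 0.41 and 0.48. MRPL10, which anchors the MRPL12 stalk, rose by 0.37 at 48 h, with 9.46, 9.27 and 9.48 in PGG at 48 h against 8.98, 9.08 and 9.05 in PBS. MRPL10 and MRPL12, neighbours in the ribosome, thus went opposite ways at 48 h, which was seen only after the values were known.

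At 6 h MRPL17 and MRPL27, both with bacterial relatives, rose by 0.80 and 0.69 (adjusted p = 1.6e-06 and 3.6e-06 from limma). MRPL17 had 9.74, 9.81 and 9.79 in PGG at 6 h, 9.33, 9.26 and 9.26 in PGG at 48 h and 9.03, 9.03 and 8.87 in PBS. At 48 h it was still higher, by 0.31, and MRPL27, known in bacteria for its place beside the catalytic centre, was higher by 0.18 (adjusted p = 0.027). The call of MRPL27 at 48 h was lost without any 1 of the 3 PBS arrays or without replicate 2 or 3 of PGG at 48 h, with differences of 0.16 to 0.19. MRPL1, of the stalk beside the exit site of transfer RNA, had 10.03, 10.07 and 10.13 in PGG at 6 h, 9.47, 9.46 and 9.46 in PGG at 48 h and 9.51, 9.47 and 9.44 in PBS. It rose by 0.60 at 6 h and overlapped PBS at 48 h.

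Members that rose and then fell included MRPL23, at the exit of the peptide tunnel in bacteria, MRPL20, needed for assembly in bacteria, MRPL41, a mitochondria-specific protein, and MRPL16, whose bacterial relative contacts transfer RNA. MRPL20 had 11.34, 11.20 and 11.14 in PGG at 6 h, 9.78, 9.89 and 9.94 in PGG at 48 h and 10.70, 10.83 and 10.80 in PBS. Its differences from PBS were 0.45 and -0.91, and no group overlapped another. MRPL23 had 0.48 and -0.83, MRPL41 had 0.38 and -0.48, and MRPL16 had 0.35 and -0.97. MRPL51, a mitochondria-specific protein, rose by 0.49 at 6 h and fell by 0.19 at 48 h, and the fall did not pass without PBS replicate 2 or 3 or PGG 48 h replicate 1 or 3, with differences of -0.14 to -0.20.

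**Figure D3:**
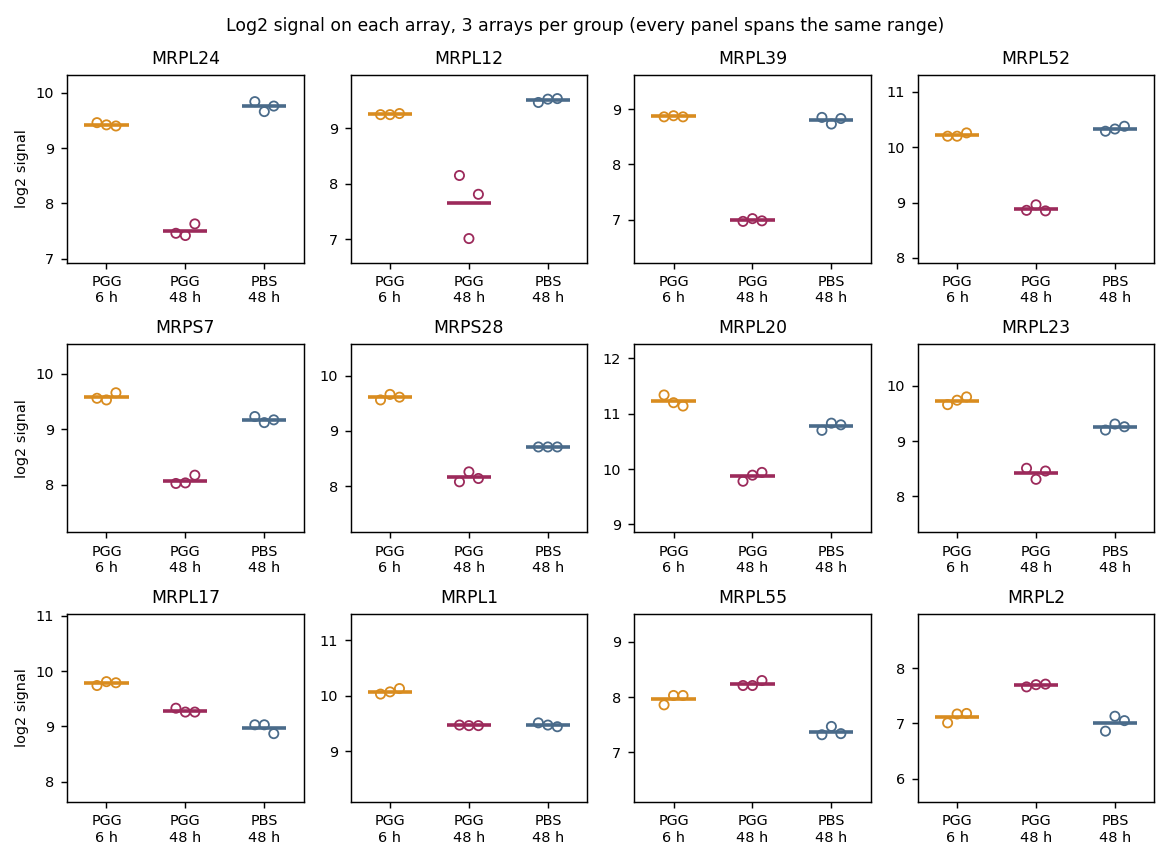
Log2 signal (vertical axis, the same span in every panel) of 12 mitoribosomal genes on the 3 arrays of PGG at 6 h, PGG at 48 h and PBS at 48 h. Circles are arrays and bars are group means. MRPL24 and MRPL39 are lowest in PGG at 48 h, MRPS28 is high at 6 h and low at 48 h, and MRPL55 is above PBS at both times.

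In the small subunit, which reads the messenger RNA, no member rose at 48 h on the probe set used (against 23.9% of all genes). Of its 25 genes 21 fell (84%, against 24.3% of all genes), with a median of -0.55. The other 4, MRPS12, MRPS22, MRPS6 and MRPS18B, did not pass on the probe sets used. At 6 h 6 rose (24%, against 17.2% of all genes) and 2 fell (8%, against 16.9%). The median at 6 h was 0.08. Among the 16 with a bacterial relative 13 fell at 48 h, and among the 9 without one 8 fell.

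MRPS28, which stands at the place of bacterial S1, had the largest rise of all members at 6 h. Its signal was 9.56, 9.66 and 9.61 in PGG at 6 h, 8.08, 8.26 and 8.14 in PGG at 48 h and 8.71 on each PBS array. The 3 groups were separate, with differences of 0.90 at 6 h (SE 0.06, adjusted p = 6.2e-07 from limma) and -0.55 at 48 h (SE 0.06, adjusted p = 1.3e-05), and the difference of PGG at 48 h from PGG at 6 h was -1.45. MRPS7, whose bacterial relative organises the head of the small subunit, had 9.56, 9.53 and 9.66 in PGG at 6 h, 8.02, 8.03 and 8.17 in PGG at 48 h and 9.23, 9.12 and 9.17 in PBS. It rose by 0.41 at 6 h and fell by 1.10 at 48 h, the largest fall among the 25 small-subunit members.

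The members of highest signal on these probe sets were MRPS15, a relative of a bacterial protein that binds ribosomal RNA early in assembly, MRPL47, near the tunnel exit, MRPL3, near the catalytic centre, and MRPS35, a mitochondria-specific protein. MRPL47 fell by 0.89 and MRPS35 fell by 0.66 at 48 h (adjusted p = 1.6e-07 and 1.8e-06 from limma). MRPS15 had 0.31 at 6 h and -0.16 at 48 h, and MRPL3 had 0.37 and -0.21. Both falls were close to the threshold (adjusted p = 0.044 for MRPS15 and 0.021 for MRPL3). The fall of MRPS15 was lost without any 1 of 7 arrays (each PBS array, PGG 6 h replicates 1 and 2, PGG 48 h replicates 1 and 3), with -0.14 to -0.18, and that of MRPL3 without PBS replicate 1 or 2 or PGG 48 h replicate 1, with -0.17 to -0.18. MRPL44, which has a fold of the ribonuclease III family and was among the members of lowest signal, had 0.31 at 6 h (adjusted p = 0.040). This call was lost without any 1 of 7 arrays (PBS replicates 2 and 3, each PGG 6 h array, PGG 48 h replicates 1 and 3), with 0.22 to 0.33, and its 0.15 at 48 h, which did not pass, was 0.30 and passed without PBS replicate 1.

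The 3 paralogues of bacterial S18 occupy different places in the ribosome. MRPS18C, in the bacterial position, fell by 0.35 at 48 h, with 9.36, 9.38 and 9.40 in PGG at 48 h against 9.71, 9.76 and 9.71 in PBS. MRPS18A, in the large subunit, fell by 0.53, with 7.65, 7.31 and 7.60 in PGG at 48 h against 8.0, 8.13 and 8.01 in PBS. MRPS18B fell by 0.30 at 6 h on the probe set used. At 48 h that probe set overlapped PBS, with 10.21, 10.09 and 10.27 in PGG against 10.21, 10.33 and 10.27 in PBS (adjusted p = 0.43 from limma). The other probe set of MRPS18B, of lower signal, fell by 0.41 at 48 h (adjusted p = 0.0098 from limma over all probe sets). It had 8.78, 8.37 and 8.73 in PGG at 48 h against 9.16, 8.99 and 8.95 in PBS.

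At the stricter threshold that the study set for probe sets, an adjusted p under 0.005 and a mean difference beyond 1.5, taken as log2, 0 of the 140 member probe sets passed at 6 h (0.734% of all probe sets) and 4 passed at 48 h (4.12% of all probe sets). They were probe sets of MRPL24, MRPL12, MRPL39 and MRPS16, a relative of bacterial S16, and all 4 were lower. The probe set of MRPS16 that passed, 222499_at, had 7.70, 6.85 and 7.37 in PGG at 48 h against 9.0, 9.07 and 9.08 in PBS, a difference of -1.74. The probe set of higher signal used for the gene gave -0.86. Of the 37 members with several probe sets, all probe sets had the same sign for 22 members at 6 h and for 30 at 48 h.

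Probe sets of 3 members were called in opposite directions. For MRPS30, a mitochondria-specific protein of the large subunit, the probe set 218398_at had 0.29 at 48 h, while 222275_at had -1.24 and 227600_at had -1.41. The rise counted for this gene therefore rests on 1 of 3 probe sets, and the mean of the 3 gave -0.79. For MRPL23 at 6 h 213897_s_at had 0.48 and 1562392_at had -0.27. For MRPL43, a mitochondria-specific protein, 230027_s_at had 0.27 and 224332_s_at had 0.42 at 6 h, while 230026_at had -0.31. Its fall at 48 h on the probe set used was -0.16 (adjusted p = 0.047 from limma) and was lost without any 1 of 7 arrays (each PBS array, PGG 6 h replicates 2 and 3, PGG 48 h replicates 1 and 3), with -0.14 to -0.17. Of the 140 member probe sets, 85 were of a type that can pick up related transcripts.

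The rest of the mitochondrial translation apparatus was described on lists of genes that carry other symbols. For comparison with these lists, 17.2% of all genes rose and 16.9% fell at 6 h, and 23.9% rose and 24.3% fell at 48 h. Among 4 mitoribosomal proteins with other names, 0 rose and 2 fell (50%) at 6 h and 3 fell (75%) at 48 h. PTCD3, a pentatricopeptide protein of the small subunit, fell by 1.78 at 48 h, with 7.92, 8.06 and 7.97 in PGG at 48 h against 9.77, 9.73 and 9.79 in PBS, and the GTP-binding protein DAP3 fell by 0.83. Both were also lower at 6 h, where PTCD3 fell by 0.37 and DAP3 fell by 0.41.

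Of 25 factors of mitoribosome assembly, 10 rose (40%) and 3 fell (12%) at 6 h, and 5 rose (20%) and 13 fell (52%) at 48 h. NOA1, a GTPase of assembly, rose by 0.80 at 48 h and RPUSD4, which modifies the large ribosomal RNA, by 0.60. MTERF3, which acts in ribosome biogenesis, fell by 1.05 at 6 h and fell by 1.92 at 48 h, and the rRNA methyltransferase MRM3 fell by 0.22 and fell by 0.98. Without PGG 6 h replicate 3 the count of rises at 6 h was 6. Of 14 translation factors measured, 2 rose (14.3%) and 4 fell (28.6%) at 6 h, and 0 rose and 9 fell (64.3%) at 48 h. GUF1, a GTPase of elongation, fell by 1.99 and the initiation factor MTIF2 fell by 1.54 at 48 h.

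Of 18 enzymes that charge mitochondrial transfer RNA, 10 rose (55.6%) and 5 fell (27.8%) at 6 h. At 48 h 5 rose (27.8%, against 23.9% of all genes) and 8 fell (44.4%, against 24.3%). At 48 h VARS2 for valine rose by 0.52 and RARS2 for arginine by 0.40, whereas MARS2 for methionine fell by 2.56 and QRSL1, which forms glutaminyl-tRNA, fell by 1.16. Of 18 genes of mitochondrial transcription, DNA replication and RNA stability, 5 rose (27.8%) and 7 fell (38.9%) at 6 h. At 48 h 4 rose (22.2%) and 13 fell (72.2%). The helicase SUPV3L1 rose by 1.23 and the DNA polymerase POLG by 0.78, while the RNA-degrading PNPT1 fell by 1.84 and TFAM, which packages mitochondrial DNA and starts its transcription, fell by 1.45. In this list the counts at 6 h fell to 3 rises without PBS replicate 1 or 3 or PGG 6 h replicate 2 or 3, and to 3 falls without PBS replicate 1 and 4 without PGG 6 h replicate 2.

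**Figure D4:**
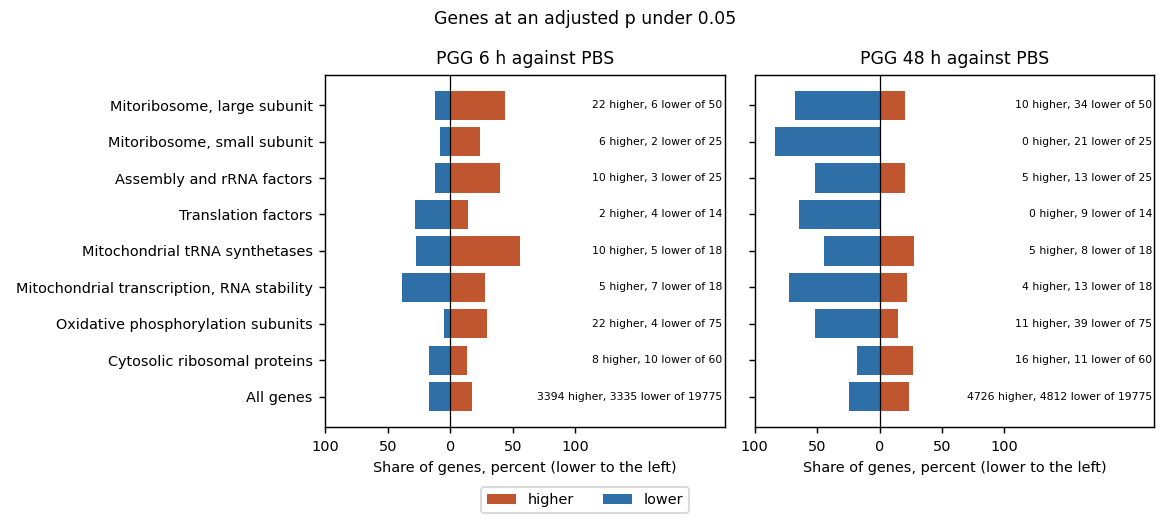
Share of genes (horizontal axis, percent) at an adjusted p under 0.05 (limma), higher to the right and lower to the left, for the 2 subunits, other groups and all genes at each time. At 48 h the lower share is 68% of the large subunit and 84% of the small subunit. It is 52% of oxidative phosphorylation genes, 18.3% of cytosolic ribosomal genes and 24.3% of all genes.

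Oxidative phosphorylation and the ribosome of the cytosol give 2 points of comparison. Over all genes 17.2% rose and 16.9% fell at 6 h, and 23.9% rose and 24.3% fell at 48 h. Of 75 nuclear genes of oxidative phosphorylation, 22 rose (29.3%) and 4 fell (5.33%) at 6 h. At 48 h 11 rose (14.7%) and 39 fell (52%), and the medians were 0.06 and -0.22. Of 60 cytosolic ribosomal protein genes, 8 rose (13.3%) and 10 fell (16.7%) at 6 h. At 48 h 16 rose (26.7%) and 11 fell (18.3%), and the medians were -0.07 and 0.03. The 60 include paralogues, among which RPL10L, RPL3L, RPL39L, RPL22L1, RPL26L1 and RPL7L1 fell and RPL36AL rose at 48 h. Mean signal was low for RPL3L (4.41), RPL10L (5.08) and RPL36A (4.51), and RPL36A rose at 48 h. Over the 60 genes the median signal was 13.11, 13.11 and 13.13 on the arrays of PGG at 48 h. It was 13.12, 13.14 and 13.11 on those of PBS, and the groups overlapped. That of the mitoribosomal genes was 9.01 to 9.74 over all arrays. What part the higher signal had in this comparison was not tested. Of 7 genes of mitochondrial DNA with a probe set, 1 rose at 6 h (14.3%) and 2 fell at 48 h (28.6%). The difference between these groups and the mitoribosomal genes was not tested.

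Among 10 regulators of mitochondrial gene expression, 0 rose and 7 fell (70%) at 6 h, and 2 rose (20%) and 7 fell (70%) at 48 h. MYC had 9.83, 9.84 and 9.92 in PGG at 6 h, 9.74, 9.97 and 9.67 in PGG at 48 h and 11.78, 11.60 and 11.57 in PBS. It fell by 1.79 at 6 h and fell by 1.86 at 48 h (adjusted p = 3.2e-08 and 4.1e-09 from limma). PPARGC1A, a coactivator of mitochondrial biogenesis, had 3.95, 4.07 and 3.53 in PGG at 6 h, 7.86, 8.19 and 7.83 in PGG at 48 h and 4.68, 4.79 and 4.89 in PBS. It fell by 0.94 at 6 h and rose by 3.17 at 48 h (adjusted p = 2.0e-09). Of the 2 subunits of the ETS factor GABP, GABPA rose by 0.83 at 48 h and GABPB1 fell by 1.14. NRF1 did not pass at either time, with differences of 0.13 and -0.03.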

How the data were processed

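Affymetrix arrays, 9 in all and 3 per group, measured the RNA of Huh7 cells, and samples were grouped by their titles. Per the methods and the submitters' processing notes the authors ran RMA in Affymetrix Expression Console and deposited log2 values per probe set. That program's version was not given in the sources used here. Quantile normalization within RMA gives all arrays like distributions, so a shift shared by all genes cannot be seen. Of 54675 probe sets, 62 controls were left out. Symbols came from the platform annotation, and 0 changed on updating. All value columns were used. Where a gene had several probe sets, that of the highest mean over the 9 arrays was taken.

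Differences were fitted with limma 3.58.1 in R 4.3.3 (lmFit with 1 mean per group, eBayes, 6 residual degrees of freedom) for 3 comparisons, with Benjamini-Hochberg adjustment over 19775 genes or 54613 probe sets and a threshold of 0.05. The steps were tested on simulated data. Arrays hold no counts, so their number limits the precision. Alternatives covered the choice of probe set, the normalization, a filter on low signal, the samples fitted, a replicate block, the moderation, array weights, the methods' t-test and leaving out each array. Promoters were searched in Python 3.11.15 with pandas 2.3.3, and figures were drawn with matplotlib 3.10.9.

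Members and lists were chosen with earlier results of these data known. The members named are the 6 largest rises and falls from PBS at each time, up to 6 that moved in opposite directions at both times, the 4 of highest and 2 of lowest signal, the MRPS18 paralogues and members with probe sets called in opposite directions. From each other list up to 2 rises and 2 falls at 48 h and MYC are named. Other genes were named after their values were seen. Some list genes and markers, AURKAIP1, GFM2, TARS2, HNF4A and CD68 among them, were not analysed here. The supplementary gene table, the pathway clustering and all other experiments of the study were not used here.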

Additional observations from a re-analysis of the deposited data

Results flagged for a closer look

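Signal in PGG at 48 h differed from that in PGG at 6 h for 29 of the 34 members named (limma, adjusted p under 0.05). Of all genes, 23.6% were higher and 23.4% lower in this comparison. Longer PGG and a longer time in culture cannot be told apart in it. Many of the 34 were named for large or opposite changes at these times, so the count of 29 is a description of them. Values are log2 differences, PGG at 48 h minus PGG at 6 h. Differences beyond -1 were found for MRPL24 (-1.92), MRPL39 (-1.88), MRPL12 (-1.60), MRPS7 (-1.51), MRPL4 (-1.51), MRPS28 (-1.45), MRPL20 (-1.36), MRPL52 (-1.33), MRPL16 (-1.32) and MRPL23 (-1.31). Smaller falls were found for MRPL41 (-0.86), MRPL36 (-0.83), MRPL47 (-0.79), MRPS18A (-0.77), MRPL51 (-0.68), MRPL1 (-0.61), MRPL3 (-0.57), MRPL27 (-0.51), MRPS35 (-0.50), MRPL17 (-0.50), MRPS15 (-0.47), MRPS18C (-0.45), MRPL43 (-0.43) and MRPL48 (-0.30). PGG at 48 h was above PGG at 6 h for MRPL2 (0.57), MRPL10 (0.37), MRPL34 (0.31), MRPL55 (0.27) and MRPS18B (0.22). With 3 arrays in a group, single arrays were not screened for standing apart. The difference of MRPS18B did not pass without PGG 6 h replicate 2 (0.15) or PGG 48 h replicate 1 (0.21) or 3 (0.18).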

How the results depend on the processing

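The counts of members called at each time and their medians kept their direction and stayed within 1.5 times of the values reported under all 18 alternatives, except that with the mean of all probe sets of a gene, 3 members instead of 5 were higher at 48 h than at 6 h. With quantile normalization repeated on the deposited values, the median at 48 h kept its direction at -0.52, a shift from -0.46 larger than the spread between arrays. The count past the stricter threshold of the study at 48 h was a further exception, at 2 instead of 4 member probe sets with the methods' t-test. MRPS30 changed its sign with the mean of its probe sets, to -0.21 at 6 h, -0.79 at 48 h and -0.58 at 48 against 6 h. These come from probe sets that differ in direction. The cause of the other changes was not tested.

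Leaving out 1 array at a time gave 24 to 33 members higher and 7 to 10 lower at 6 h, 8 to 10 higher and 49 to 55 lower at 48 h, and 4 to 5 higher and 57 to 60 lower at 48 against 6 h. The medians ranged over 0.10 to 0.15, -0.51 to -0.42 and -0.62 to -0.55. By the methods' t-test with adjustment, 32 were higher and 9 lower at 6 h, and 10 higher and 47 lower at 48 h. Deviations from group means showed no sharing by replicate number. Their correlations were -0.09 to 0.04 for 9 pairs of the same number and -0.06 to 0.06 for 18 others. Whether arrays of the same number were handled together cannot be read from these values. With the replicate block 28 members were higher and 8 lower at 6 h, and 9 higher and 52 lower at 48 h. Of 1836 values of single members, 1745 kept direction and call, 57 lost the call, 31 gained one and 3 changed sign. No scaling moved the median of all genes by more than 0.03. Small differences are limited by 3 arrays per group and by 1 PBS group for both times.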
